A study of Mus musculus with 75 samples.

Results

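Cerebral cortex of mice lacking the short isoform of the DNA methyltransferase DNMT3A was compared with wild type cortex, across all genes and with the scatter between the 2 RNA libraries of each side. The comparison was chosen by the sample titles and holds 4 of the 75 samples of the series: Dnmt3a2-/- libraries 1 and 2, and wild type libraries r1 and r2. All 4 came from the cerebral cortex of C57BL/6 mice at postnatal day 21, and no agent is given for any of them. The wild type cortex libraries of the series carry 3 kinds of number (plain, r and n), and no label states which kind belongs to which mutant, so a wrong tie of the r series to Dnmt3a2-/- cannot be told apart from an effect of the genotype. The labels give neither the deleted bases of the Dnmt3a2-/- allele nor which animal, or how many, each library came from. The series also compared Dnmt3a1-/- cortex, which lacks the long isoform, and Dnmt3a1_delta_N cortex, named for a deletion in the N-terminal part of the long isoform. Its chromatin and DNA methylation samples were not analysed here.

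DNMT3A places methyl groups on cytosines that carried none before, and in neurons after birth it writes methylation both at CpG and at other cytosines. The long isoform, DNMT3A1, starts from an upstream promoter and is the main form in the maturing brain. The short isoform, DNMT3A2, starts from a promoter inside the gene, lacks the N-terminal region of the long one, and is best known from embryonic stem cells and germ cells. Promoters of germ cell genes are a classic target of silencing by DNA methylation in other tissues.

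The isoforms differ in their start, so the 250 bases before the most upstream and the most downstream start that RefSeq lists for Dnmt3a are shown, without a claim that either was deleted or that the latter is the start of DNMT3A2, followed by those of Stk31, Tex14 and Stag3, germ cell genes described further on. All come from RefSeq (build GRCm38.p6), which lists 3 starts for Dnmt3a, 2 for Stk31 and 1 each for Tex14 and Stag3, and all lie on the + strand. Capitals mark the E-box CACGTG, a sequence that reads the same on both strands and is bound by basic helix-loop-helix factors. The windows are chr12:3806730-3806979 and chr12:3891494-3891743 for Dnmt3a, chr6:49395289-49395538 for Stk31, chr11:87404815-87405064 for Tex14 and chr5:138280259-138280508 for Stag3.
Dnmt3a, most upstream start: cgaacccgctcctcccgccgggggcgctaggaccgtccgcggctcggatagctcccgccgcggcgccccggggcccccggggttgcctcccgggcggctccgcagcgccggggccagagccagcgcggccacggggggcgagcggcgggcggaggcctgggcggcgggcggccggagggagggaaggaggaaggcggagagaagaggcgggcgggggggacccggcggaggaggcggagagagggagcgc
Dnmt3a, most downstream start: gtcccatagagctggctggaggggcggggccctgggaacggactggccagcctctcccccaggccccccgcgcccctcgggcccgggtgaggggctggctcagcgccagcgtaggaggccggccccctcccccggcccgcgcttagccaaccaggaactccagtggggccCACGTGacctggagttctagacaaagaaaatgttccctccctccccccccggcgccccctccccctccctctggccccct
Stk31: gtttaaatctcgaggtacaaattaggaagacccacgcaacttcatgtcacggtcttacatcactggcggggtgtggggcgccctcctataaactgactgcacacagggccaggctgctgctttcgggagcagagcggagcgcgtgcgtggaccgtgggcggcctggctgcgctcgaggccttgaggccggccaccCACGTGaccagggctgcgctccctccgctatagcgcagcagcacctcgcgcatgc
Tex14: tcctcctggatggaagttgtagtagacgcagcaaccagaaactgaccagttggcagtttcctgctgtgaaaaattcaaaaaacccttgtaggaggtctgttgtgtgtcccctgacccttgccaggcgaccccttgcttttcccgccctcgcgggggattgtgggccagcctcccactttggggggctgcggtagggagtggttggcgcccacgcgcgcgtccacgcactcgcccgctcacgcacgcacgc
Stag3: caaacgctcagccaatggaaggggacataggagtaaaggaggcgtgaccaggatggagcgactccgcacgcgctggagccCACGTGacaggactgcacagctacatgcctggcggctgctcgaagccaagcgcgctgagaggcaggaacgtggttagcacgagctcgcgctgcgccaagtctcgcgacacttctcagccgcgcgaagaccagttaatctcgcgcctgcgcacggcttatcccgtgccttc
The most upstream Dnmt3a window held 38 CpG and no CACGTG, and the most downstream one held 15 CpG and 1 CACGTG that ended 74 bases before the start. The motif was also present once before Stk31 and once before Stag3, and not in the window of Tex14. At least 1 listed window held it in 1854 of 27018 genes in the promoter table (6.86%), and in 16 of the 43 genes of the germ cell list that have a window (37.2%). These are matches of letters in a window and say nothing of a bound factor.

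Libraries r1 and r2 held 27.6 and 32.3 M gene counts (M, mega counts), and Dnmt3a2-/- libraries 1 and 2 held 32.1 and 23.8 M. Values are given as CPM, counts per M after TMM scaling, and changes are on the log2 scale, Dnmt3a2-/- relative to wild type, each ± its standard error (SE). By Xist and Y-linked reads, library 1 of each side came from a male and library 2 from a female, so the 2 libraries of a side came from different animals. Cortical neuron and glial markers were abundant in every library. Markers of the choroid plexus, the epithelium that secretes cerebrospinal fluid, were not at the same level in the 4 libraries. Wild type r2 stood apart by interferon response genes and Dnmt3a2-/- library 2 by choroid plexus genes, with the values given below.

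Dnmt3a itself was read at 155 and 144 CPM in wild type and at 133 and 142 CPM in Dnmt3a2-/- cortex. The Dnmt3a2-/- libraries were both below the wild type ones, but the change of -0.12 ± 0.10 did not pass the test of edgeR (adjusted p = 0.9998). The count sums exons that both isoforms share, so it checks the genotype label little. The short isoform has no count of its own in these files, and whether its transcript was lost was not tested.

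Across all genes the cortex without DNMT3A2 differed little from wild type. Of 15929 genes tested, 1 passed edgeR's quasi-likelihood test at an adjusted p under 0.05 (0.00628%): Rps4l, which was higher. No gene was called lower. An unadjusted p under 0.05 was reached by 457 genes, 338 of them higher (2.12% of all tested) and the others lower (0.747%). DESeq2 called 8 genes (0.0502%), all higher and Rps4l among them. The median change over all genes was 0.001 on the log2 scale, and 8022 of 15929 changes were positive. Both Dnmt3a2-/- libraries were above both wild type libraries for 2268 genes (14.2%) and below both for 2168 (13.6%), together 27.8% of the genes tested.

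**Figure D1:**
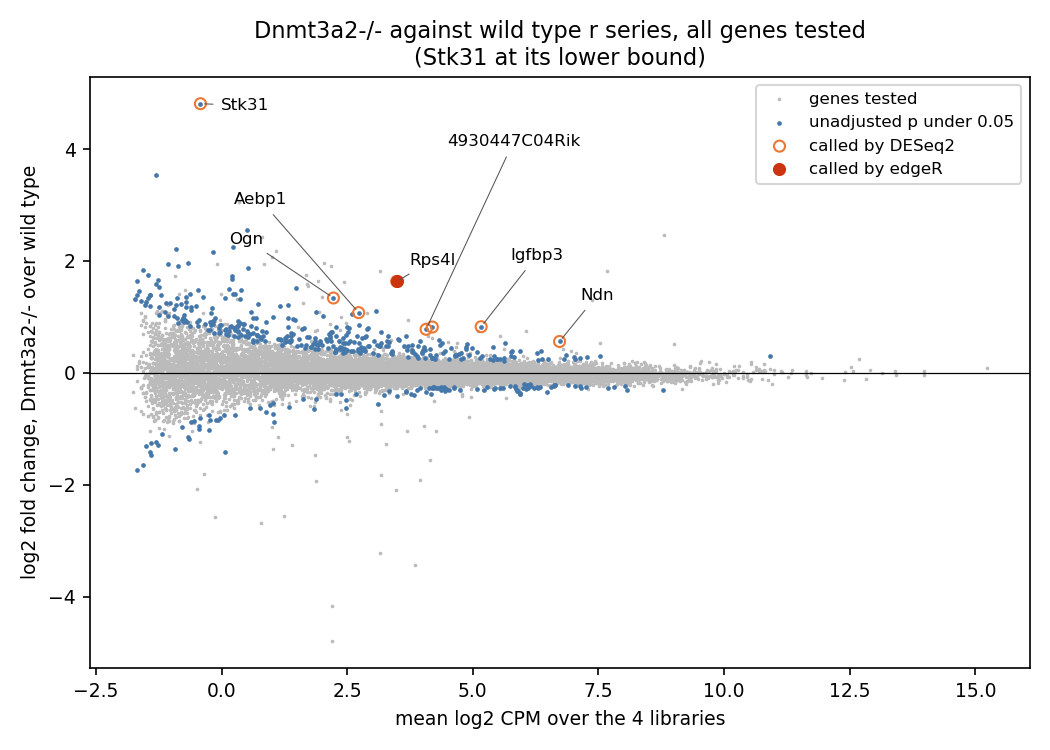
Log2 fold change of Dnmt3a2-/- over wild type against the mean log2 CPM over the 4 libraries, 1 point per gene tested. Rps4l is the only gene called by edgeR. The genes called by DESeq2 are circled and all lie above 0. Stk31 is drawn at 4.81, its value with a floor of 3 counts over the wild type side.

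The number of calls moved with each library. It was 56 without wild type r1, 25 without r2, 90 without Dnmt3a2-/- library 1 and 139 without library 2, and Rps4l was the only gene called in all 4 of these fits. Each such fit leaves 1 library on a side, which is assumed to vary like the pair of the other side, so its calls say nothing of stability. Of the other genes, 6 were called in 3 of the 4 fits, 15 in 2 and 258 in 1. With sex as a term in the edgeR fit 55 genes were called, 46 higher (0.289%) and 9 lower (0.0565%). That fit estimates 3 terms from 4 libraries, so only 1 degree of freedom is left for the spread of a gene. Its calls are uncertain for that reason, here and below. Sex and library number are the same split here and cannot be told apart.

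Rps4l, a gene for a ribosomal protein S4-like product, was read at 6.07 and 4.85 CPM in wild type and at 15.6 and 18.2 CPM in Dnmt3a2-/- cortex. Both Dnmt3a2-/- libraries stood above both wild type libraries by more than the distance within either side. The change was 1.63 ± 0.16 (SE, 2 libraries a side, edgeR adjusted p = 0.0094). In the other 12 cortex libraries Rps4l ran from 5.21 to 13.2 CPM, below both Dnmt3a2-/- values. With all 8 wild type libraries as controls the change was 1.30 and did not pass (edgeR adjusted p = 0.279), and limma-voom gave an adjusted p of 0.0859. Rps4l has close copies, so its reads are uncertain. Rps4x, the X-linked copy that most cells use, held 270 and 282 CPM against 285 and 278 CPM. Of the 7 tested genes of the tissue-specific ribosomal protein list, Rps4l alone was called, and the 73 tested ribosomal protein genes had a median change of 0.054 with none called.

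The next genes by p were higher in the Dnmt3a2-/- cortex without passing edgeR. Ndn, the imprinted gene of the neuronal growth suppressor necdin, held 84.3 and 86.6 CPM in wild type and 126 and 127 CPM in Dnmt3a2-/- (0.56 ± 0.09). The 2 libraries of a side lay close together and the sides did not overlap. By edgeR the adjusted p was 0.195, and by DESeq2 it was 0.00113.

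Aebp1, whose secreted product binds collagen, held 3.68 and 4.76 CPM in wild type against 8.43 and 9.48 CPM (1.08 ± 0.18). Ogn, a small leucine-rich proteoglycan, held 2.13 and 3.10 CPM against 5.70 and 7.69 CPM (1.34 ± 0.23). Igfbp3, a carrier of insulin-like growth factors, held 27.9 and 23.9 CPM against 55.2 and 36.2 CPM (0.83 ± 0.19). These 3 genes passed DESeq2 (adjusted p of 0.0230, 0.0197 and 0.0153) and not edgeR, and for each the 2 sides did not overlap, although Igfbp3 was much higher in Dnmt3a2-/- library 1 than in library 2. Among the 10 higher genes of smallest p (mean log2 CPM 1 or more, sides apart), those called by neither tool also included Col6a4, a collagen VI chain (0.85 ± 0.15), Sema3b, a secreted guidance cue (1.52 ± 0.27), Bmp6, a growth factor of the BMP family (1.02 ± 0.21), Slc6a13, a GABA transporter of the meninges (1.05 ± 0.22), and Mcmdc2, a helicase-like factor of meiotic recombination.

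**Figure D2:**
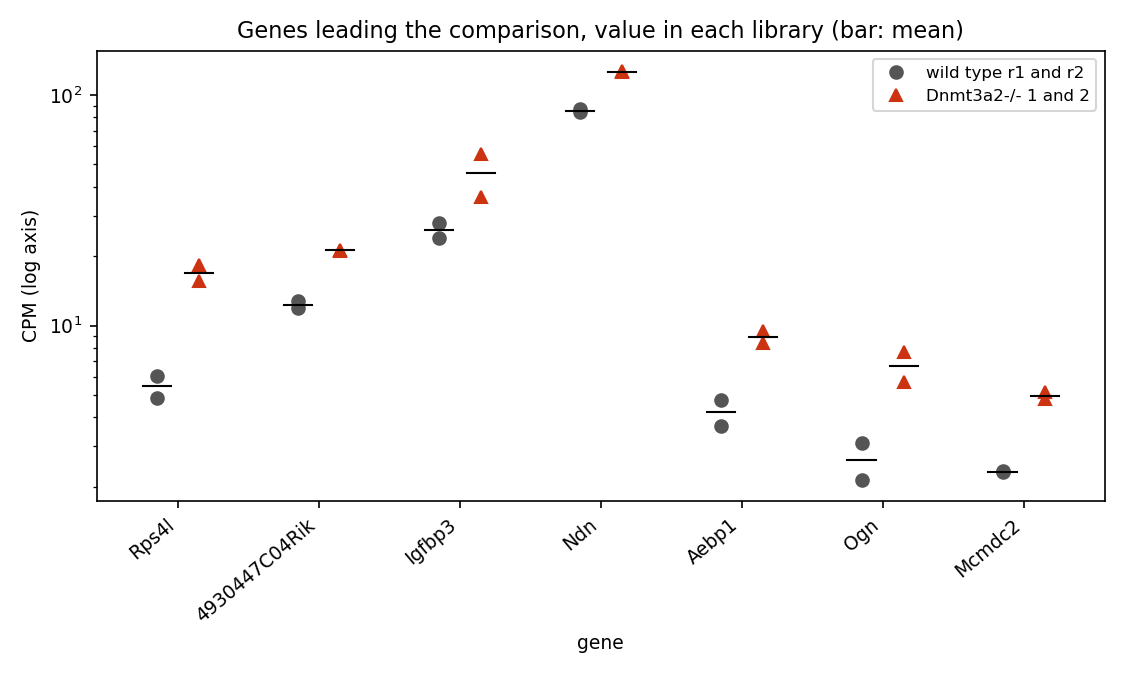
CPM on a log axis in wild type r1 and r2 (circles) and Dnmt3a2-/- libraries 1 and 2 (triangles) for 7 genes at the top of the comparison, with a bar at each mean. The 2 sides do not overlap for any of these genes, which were chosen for their small p.

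Lower genes were fewer and their changes smaller. The smallest p belonged to Hivep3, a large zinc finger factor, at 73.6 and 65.2 CPM in wild type and 53.2 and 54.6 CPM in Dnmt3a2-/- (-0.36 ± 0.10). Its relative Hivep1 held 89.0 and 82.0 CPM against 70.2 and 71.9 CPM (-0.27 ± 0.09). Hmcn1, an extracellular matrix protein, held 10.5 and 9.89 CPM against 6.14 and 7.69 CPM (-0.56 ± 0.16). The adjusted p of edgeR was 0.9998 for each of the 10 lower genes chosen the same way. The other 7 were Sgsm1 (-0.34), Zbtb20 (-0.37), Il2rg (-0.88), Mall (-0.74), Hspa1b (-0.64), Akap5, the anchor of protein kinase A at the synapse (-0.31), and Cobl, an actin nucleator (-0.26). With all 8 wild type libraries as controls, Hspa1b, Akap5 and Cobl turned to positive values of 0.073, 0.15 and 0.24.

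A few germ cell genes differed widely. Stk31, a gene of testis and oocytes whose promoter is shown above, had 0 counts in both wild type libraries and 62 and 17 counts in the Dnmt3a2-/- libraries. It was the only gene with 0 counts in both libraries of one side and at least 10 in each library of the other. Against a floor of 3 counts over the wild type side, the pooled Dnmt3a2-/- libraries were 28.1-fold higher. That value allows for counting error of the wild type side only, and it rests mostly on Dnmt3a2-/- library 1. DESeq2 called Stk31 (adjusted p = 0.00613), edgeR did not (adjusted p = 0.22), and edgeR did with all 16 cortex libraries in the fit (adjusted p = 0.0165). Over the edgeR and limma alternatives its adjusted p ran from 1.54e-17 without a filter to 0.437 without robust estimation. In the other 12 cortex libraries Stk31 ran from 0 to 0.165 CPM, against 1.92 and 0.698 CPM in Dnmt3a2-/- on the same scale. Its difference of effects from Dnmt3a1-/- did not pass (edgeR adjusted p = 0.18).

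Of the 50 germ cell and meiosis genes of the list, 20 passed the filter on low counts. Of these, 16 had positive changes, and the median was 0.312, also with Stk31 at its value against the floor. At an unadjusted p under 0.05, 6 were higher and none lower, against 2.12% and 0.747% of all genes. A gene can pass the filter through the side where it is higher, so these counts describe the 20 genes and support nothing. Tex14, which keeps the bridges between germ cells open, held 7 and 11 counts in wild type against 51 and 26 counts (2.16 ± 0.38, edgeR adjusted p = 0.22). Stag3, a subunit of the meiotic cohesin complex, held 1.25 and 1.38 CPM against 3.07 and 2.16 CPM (1.00 ± 0.25). Its partner Rec8 held 3.20 and 2.55 CPM against 3.82 and 4.70 CPM (0.57 ± 0.21). Rnf17, a tudor domain protein of spermatids, held 0.588 and 0.553 CPM against 1.13 and 1.12 CPM (0.98 ± 0.31). Xlr3a, of an X-linked family with near-identical copies whose reads are uncertain, held 1.07 and 0.768 CPM against 2.51 and 1.33 CPM (1.10 ± 0.34). None of these passed edgeR, and for each the sides did not overlap, as for 14.2% of all genes in that direction.

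The germ cell genes were not uniformly higher, as 4 of the 20 tested had negative changes. Brdt, a testis bromodomain protein, held 12.5 and 14.4 CPM against 14.1 and 13.1 CPM, and Ddx25 22.2 and 27.3 CPM against 28.8 and 24.1 CPM. The sides overlapped for both. Dazl, an RNA-binding protein of germ cells, was slightly higher in both libraries, at 3.97 and 3.59 CPM against 4.67 and 4.03 CPM (0.21 ± 0.18). Dmrtb1 was below wild type in both libraries (-0.37 ± 0.29). Of the 30 list genes not tested, 8 had 0 counts in all 4 libraries, 16 had a higher mean CPM in Dnmt3a2-/- and 6 a lower one. Slc25a31, the testis ADP/ATP carrier, had 1 and 2 counts in wild type and 25 and 4 in Dnmt3a2-/-. Fkbp6 had 0 and 0 against 6 and 5, and Mael, a piRNA pathway factor, 1 and 1 against 5 and 5. Counts this low allow no statement on a single gene. In a bulk tissue, more cells with a transcript and more of it per cell cannot be told apart.

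**Figure D3:**
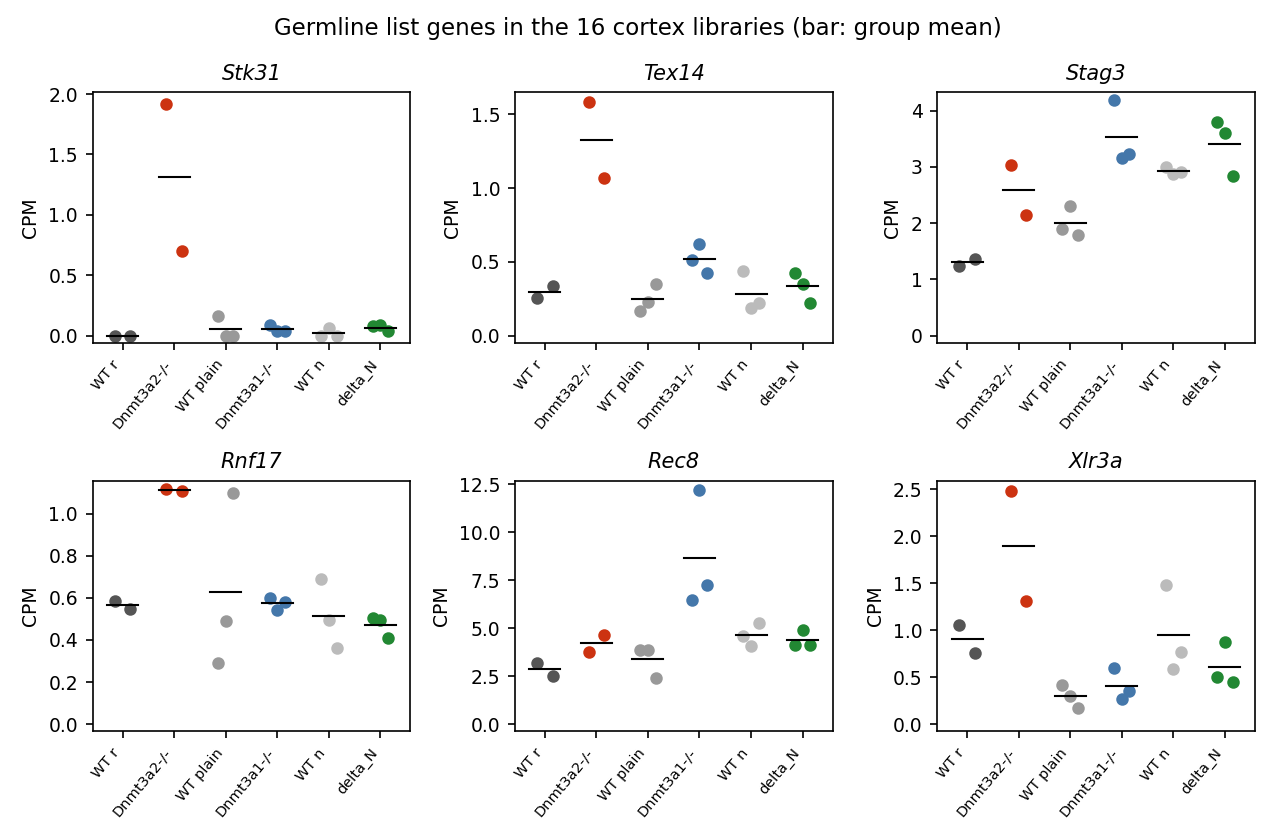
CPM of 6 germ cell list genes in the 16 cortex libraries by group, scaled together, with a bar at each group mean. Stk31 and Tex14 are highest in the 2 Dnmt3a2-/- libraries, whereas Stag3 and Rec8 reach higher values in Dnmt3a1-/-, at up to 4.18 and 12.2 CPM.

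Other meiotic genes stood outside the list and were picked after their values were seen. 4930447C04Rik, which RefSeq also lists as Six6os1, a part of the synaptonemal complex, held 12.7 and 11.9 CPM against 21.0 and 21.4 CPM (0.78 ± 0.11, edgeR adjusted p = 0.195, DESeq2 adjusted p = 0.00613). Mcmdc2 held 2.32 and 2.33 CPM against 5.14 and 4.78 CPM (1.09 ± 0.19). Hsf2bp, a factor of meiotic recombination, held 0.331 and 0.430 CPM against 2.22 and 1.41 CPM (2.25 ± 0.35, edgeR adjusted p = 0.195). Hsf2bp passed edgeR with all 8 wild type libraries as controls (2.67, adjusted p = 0.00962). It also passed edgeR with all 16 cortex libraries in the fit (adjusted p = 0.0348). With sex as a term, edgeR called 2 genes of the germ cell list, Stk31 and Tex14, both higher, where 0.289% of all genes were called higher. Hsf2bp, Mcmdc2 and 4930447C04Rik were also among the 46 genes called higher in that fit.

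In the DNA methylation machinery, none of the 23 tested genes was called by either tool or had an unadjusted p under 0.05. The median change was -0.035, with 16 changes negative and 7 positive. The sides were apart for 3 higher and 3 lower genes, against 14.2% and 13.6% of all genes. Gadd45g (0.36 ± 0.17) was among the higher ones and Mbd5 (-0.21 ± 0.097) among the lower ones. Dnmt1, the maintenance enzyme, held 38.7 and 37.7 CPM in wild type and 35.0 and 41.7 CPM in Dnmt3a2-/-, and Dnmt3b held 0.736 and 0.860 CPM against 0.595 and 1.04 CPM. Tet3, the main oxidase of methylcytosine here, held 60.6 and 54.5 CPM against 54.7 and 47.3 CPM. The 2 sides overlapped for these 3 genes. The changes of all 23 lay between -0.22 and 0.36. Of 24 tested neighbours of Dnmt3a on its chromosome none was called, with a median of -0.024.

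Imprinted genes, whose parental copies carry different methylation, were mixed. Of 41 tested, 3 had an unadjusted p under 0.05 and a higher value and 1 a lower value (over all genes, 2.12% and 0.747%). The median was 0.011. Beside Ndn, Nnat held 45.02 and 49.3 CPM in wild type against 59.9 and 62.0 CPM (0.37 ± 0.09), and Zdbf2 held 24.9 and 25.9 CPM against 21.2 and 19.9 CPM (-0.30 ± 0.11). Neither passed edgeR. With sex as a term edgeR called Ndn and Igf2 of the list, both higher, where 0.289% of all genes were called higher. In other wild type cortex Ndn ran from 71.3 to 150 CPM, so its Dnmt3a2-/- values lay within the range of wild type libraries outside the r series.

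Several gene groups varied strongly with single libraries. Of 21 tested choroid plexus markers all 21 changes were positive, with a median of 1.62, but their summed level was 783 and 410 CPM in wild type and 431 and 2483 CPM in Dnmt3a2-/-. Ttr, the transthyretin that choroid plexus secretes, held 258 and 18.3 CPM against 10.8 and 1502 CPM. Without Dnmt3a2-/- library 2 the median of the list turned to -0.719. Interferon response genes had a median of -0.453 with 40 of 42 changes negative and 1 unadjusted p under 0.05. Iigp1, an interferon-induced GTPase, held 1.25 and 30.0 CPM in wild type against 1.69 and 1.70 CPM, and Gbp4 held 2.17 and 49.1 CPM against 2.25 and 2.54 CPM. Only r2 was high for these genes, and without it the median of the list was 0.227. With sex as a term edgeR called 3 genes of the list lower, Gbp7, H2-K1 and Ifi44, where 0.0565% of all genes were called lower. It called higher Msx1 of the choroid plexus list and Sik1 of the immediate early list, where 0.289% of all genes were called higher. Immediate early genes, which neurons switch on within minutes of activity, had a median of 0.182, with 22 of 29 changes positive. At an unadjusted p under 0.05, 4 were higher and 1 lower, against 2.12% and 0.747% of all genes. The sides were apart for 7 higher and 2 lower genes, against 14.2% and 13.6% of all genes. Arc held 65.3 and 124 CPM against 330 and 138 CPM and Fos 7.17 and 20.9 CPM against 28.7 and 15.0 CPM, with Dnmt3a2-/- library 1 the highest and r1 the lowest for both. Without Dnmt3a2-/- library 1 that median was -0.05.

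**Figure D4:**
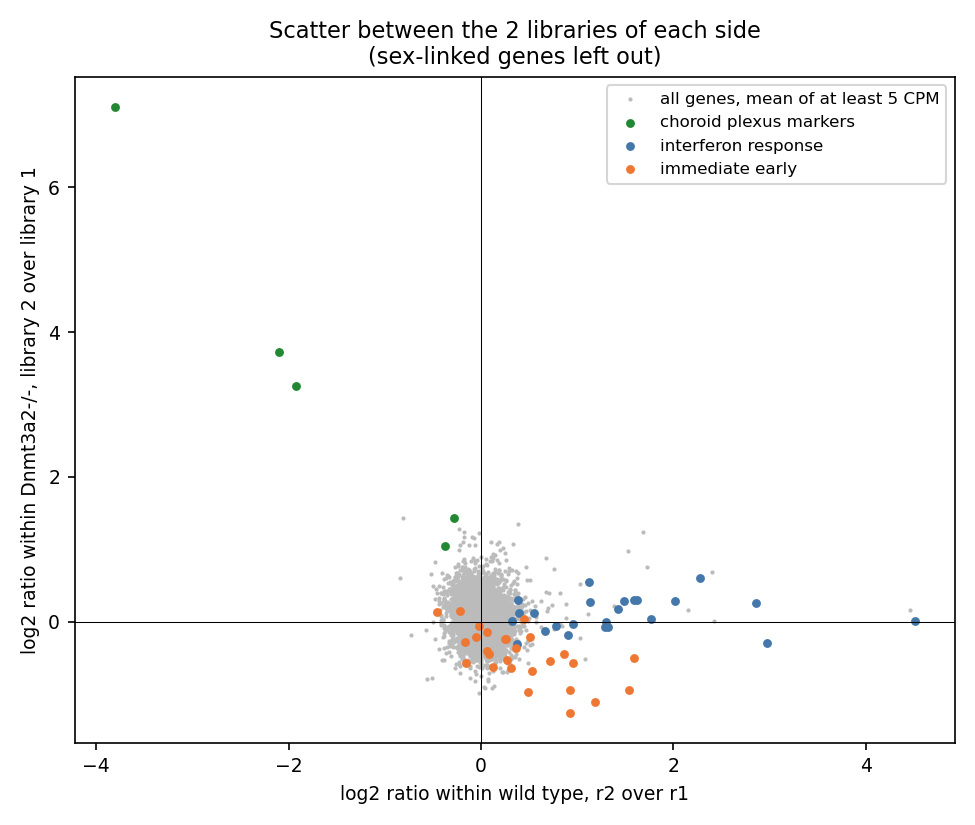
Log2 ratio of library 2 over library 1 within Dnmt3a2-/- against that of r2 over r1 within wild type, 1 point per gene with a mean of at least 5 CPM, sex-linked genes left out. Choroid plexus markers spread in both pairs in opposite directions, interferon response genes spread along the wild type axis, and immediate early genes sit mostly at positive wild type and negative Dnmt3a2-/- ratios.

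Of 26 tested markers of mural and meningeal cells none was called by edgeR, and DESeq2 called Ogn. The median change was 0.446, and 8 had an unadjusted p under 0.05 and a higher value, against 2.12% of all genes. Their summed level was 703 and 867 CPM in wild type and 936 and 1201 CPM in Dnmt3a2-/-. Ptgds, the prostaglandin D synthase of the meninges, held 49.7 and 130 CPM against 295 and 342 CPM, and Col1a1 held 4.86 and 6.05 CPM against 7.83 and 11.2 CPM but turned to -0.30 with all 8 wild type libraries as controls. With sex as a term edgeR called 8 markers of the list, all higher, where 0.289% of all genes were called higher. The median was 0.827 without r2 and 0.11 without Dnmt3a2-/- library 2. Ogn and Slc6a13, named above, are members of this list, and the part of meninges in the dissection was not tested. Ptgds ran from 111 to 756 CPM in the other wild type cortex libraries.

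Of 23 tested striatum markers none was called by edgeR or DESeq2, the median change was 0.352, and 8 had an unadjusted p under 0.05 and a higher value, against 2.12% of all genes. The dopamine receptor Drd1 held 21.7 and 25.8 CPM in wild type against 30.4 and 30.4 CPM, and Drd2 held 11.1 and 14.1 CPM against 14.3 and 20.9 CPM. Their summed level was 1184 and 1253 CPM against 1257 and 1558 CPM, and the median was 0.091 without Dnmt3a2-/- library 2. For the 24 tested genes induced by glucocorticoids and stress the median was 0.273. At an unadjusted p under 0.05, 8 of them were higher, against 2.12% of all genes. The clock gene Per1 held 40.6 and 40.5 CPM against 66.0 and 51.5 CPM, the metallothionein Mt2 held 72.8 and 68.8 CPM against 94.4 and 91.0 CPM, and Sgk1, a kinase induced by glucocorticoids, held 48.9 and 46.1 CPM against 69.5 and 55.5 CPM. The sides did not overlap for these 3 genes, as for 14.2% of all genes in that direction. Without Dnmt3a2-/- library 1 the median of the list was 0.064. None of the 24 passed edgeR without sex as a term. With it, edgeR called Per1 (adjusted p = 0.0319) and Plin4 (adjusted p = 0.0198) higher, where 0.289% of all genes were called higher. With all 8 wild type libraries as controls Per1 and Sgk1 turned to -0.45 and -0.19.

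Apart from myelinating oligodendrocytes, the main cell classes of cortex had median changes near 0. Excitatory neuron and layer markers had a median of -0.036, inhibitory neuron markers 0.062, astrocyte markers 0.018, microglia markers -0.038, endothelium markers -0.045 and oligodendrocyte precursor markers 0.071. At an unadjusted p under 0.05, 2 of 20 endothelium markers were lower and 2 of 26 inhibitory neuron markers higher. Of 27 excitatory neuron and layer markers, 1 was higher and 2 were lower. Over all genes, 2.12% were higher and 0.747% lower. Markers of myelinating oligodendrocytes had 19 of 20 changes positive and a median of 0.138, and none was called. Both Dnmt3a2-/- libraries were above both wild type ones for 10 of the 20, against 14.2% of all genes. Their summed level was 16990 and 16460 CPM in wild type and 17440 and 20260 CPM in Dnmt3a2-/-, highest in library 2. Mobp held 1739 and 1727 CPM in wild type and 2055 and 2208 CPM in Dnmt3a2-/- (0.30 ± 0.09, edgeR adjusted p = 0.9998). Of 38 synapse genes, 27 changes were negative and the median was -0.076. Homer1, a scaffold of excitatory synapses, held 302 and 292 CPM against 257 and 223 CPM, and the NMDA receptor subunit Grin2b held 20.5 and 16.8 CPM against 15.0 and 14.4 CPM. Both were below wild type in both libraries and neither passed.

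The remaining lists held no call by edgeR or DESeq2 without sex as a term. With it, edgeR called Per1 of the circadian clock list (adjusted p = 0.0319) and Mia of the ependyma list (adjusted p = 0.0202), both higher. Of all genes, 0.289% were called higher in that fit. The medians were -0.052 for circadian clock genes, 0.049 for cholesterol biosynthesis, 0.035 for clustered protocadherins, 0.057 for Polycomb and developmental factors, 0.036 for the mitochondrial genome, -0.027 for cell division and -0.056 for sex-linked genes. Among markers of neighbouring tissue they were -0.014 for hippocampus, -0.013 for thalamus, 0.144 for hypothalamus, 0.123 for olfactory bulb and migrating neuroblasts, 0.219 for ependyma and 0.289 for blood. The count at an unadjusted p under 0.05 was at most 2 in any of these lists.

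By the SD of the log2 ratio, the scatter within the Dnmt3a2-/- side was larger than that between sides, and the scatter within wild type was smaller. Over 11446 genes with a mean of at least 5 CPM, sex-linked genes left out, the SD of the log2 ratio was 0.171 between r1 and r2 and 0.254 between the Dnmt3a2-/- libraries. Between a wild type and a Dnmt3a2-/- library it was 0.189 to 0.221. The median absolute ratio was 0.074 within wild type and 0.161 within Dnmt3a2-/-, and 60 genes differed by over 1.5-fold within wild type against 222 within Dnmt3a2-/-. Beyond 2-fold this order did not hold, with 33 genes within wild type, 25 within Dnmt3a2-/- and 22 to 33 between sides. Outside the sex-linked genes, Gbp4, Iigp1, Igtp, Gbp2 and Irgm2 had the highest ratios of r2 over r1, and Ttr, Kl and Clic6 of the choroid plexus those of Dnmt3a2-/- library 2 over library 1. With sex-linked genes in, pairs within the other cortex groups gave SDs of 0.185 to 0.33, against 0.259 and 0.325 for these 2 sides on the same genes. The first principal component of the 4 libraries, sex-linked genes kept in, carried 43.4% of the variance. It split libraries 1 from libraries 2, which is also the split by sex. Xist and Y-linked genes had the largest loadings of the first component among named genes, with Ttr next. The third carried 25.3% and split the sides, with r1 and r2 at 19.8 and 5.8 and Dnmt3a2-/- at -17 and -8.6, and Stk31 had its largest loading.

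The precision of the comparison can be stated roughly from the intervals. They rest on an SE derived from each change and its test, which is uncertain for changes near 0. The SE had a median of 0.127 over all genes and 0.112 at 5 CPM or more. The 95% interval of the change lay wholly within 1.5-fold in either direction for 11731 genes (73.6%) and within 2-fold for 14016 genes (88%). For the other genes the intervals do not exclude a change of that size.

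The effect of losing the short isoform was set against that of losing the long one in an edgeR fit of all 16 cortex libraries, in which the 2 mutants share no control library. The difference of effects passed for 23 of 16899 genes (0.136%), 13 positive (0.0769%) and 10 negative (0.0592%). Dnmt3a was among them: it held 73.4 to 81.8 CPM in Dnmt3a1-/- against 150 to 167 CPM in its plain wild type series, and the difference was 0.90 ± 0.11 (edgeR adjusted p = 0.00226). Frzb, a secreted Wnt antagonist, held 27.0 and 26.4 CPM in r1 and r2, 27.2 and 23.6 CPM in Dnmt3a2-/- and 12.4 to 13.2 CPM in Dnmt3a1-/- against 22.2 to 27.4 CPM in the plain series (difference 0.92 ± 0.14, edgeR adjusted p = 0.00891). Thbs4, a thrombospondin of the synaptic matrix, held 14.6 and 13.02 CPM, 16.9 and 13.3 CPM and 27.1 to 31.9 CPM against 11.3 to 13.2 CPM in the same order (-1.08 ± 0.15, edgeR adjusted p = 0.00686). Gdf10, a BMP family ligand, held 6.45 and 6.94 CPM, 7.19 and 7.47 CPM and 22.0 to 23.5 CPM against 9.31 to 10.8 CPM (-1.06 ± 0.16, edgeR adjusted p = 0.00891). The count was 44 without r1, 5 without r2, 7 without Dnmt3a2-/- library 1 and 21 without library 2.

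In Dnmt3a1-/- cortex edgeR called 2845 of 15933 genes against its own wild type series (17.9%). Of the 1396 called higher there and tested in Dnmt3a2-/-, 1061 changes were positive and 335 negative, with a median of 0.088 against 0.453 in Dnmt3a1-/-, and 91 had an unadjusted p under 0.05 and a higher value and 2 a lower one (over all genes, 2.12% and 0.747%). Of the 1418 called lower there, 1020 changes were negative and 398 positive, with a median of -0.052 against -0.37, and 39 had an unadjusted p under 0.05 and a lower value and 3 a higher one. Rps4l was the only gene called in both, at 0.87 ± 0.18 in Dnmt3a1-/- in the fit of 16 libraries, and its difference of effects did not pass (edgeR adjusted p = 0.297). Igfbp3 changed by 1.36 ± 0.24 in Dnmt3a1-/- in the same fit. The value found in Dnmt3a1-/- lay outside the 95% interval of Dnmt3a2-/- for 878 of the 1396 and 994 of the 1418 genes. That count gives the Dnmt3a1-/- value no error of its own, so it is not a test of a difference. The test of the difference itself passed for 23 of 16899 genes. The 1396 and 1418 genes were chosen for their size in Dnmt3a1-/-, so their values there run large.

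**Figure D5:**
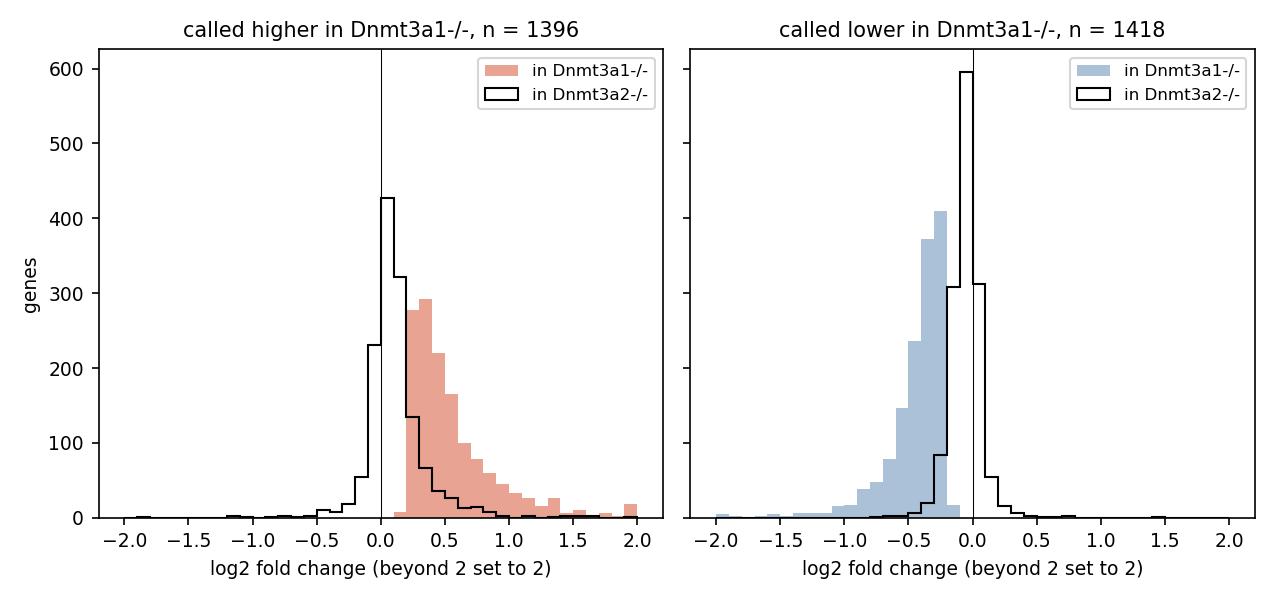
Histograms of the log2 fold change of genes called higher (left) and lower (right) in Dnmt3a1-/- cortex, in Dnmt3a1-/- (filled) and in Dnmt3a2-/- (line), with values beyond 2 set to 2. The Dnmt3a2-/- values lie close to 0, with medians of 0.088 and -0.052, shifted to the side of the call.

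Against Dnmt3a1_delta_N, whose libraries share no control with Dnmt3a2-/-, edgeR called 0 differences of effects (0%), with 530 of 16899 at an unadjusted p under 0.05. DESeq2 called 2, and 19 were called by edgeR without r1. For Rps4l the difference was 1.42 ± 0.27 (edgeR adjusted p = 0.336), and for Tex14 it was 1.95 ± 0.58 and did not pass either.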

How the data were processed

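Per the labels' protocols, whole cortices were homogenized and total RNA went into a stranded mRNA library kit. The deposited values are raw read counts per gene identifier; the submitters' processing notes name STAR 2.5.4a, HTSeq 0.11.0 and build mm9, and the annotation release and strand setting are not given in the sources used here. The 4 libraries held 23.8 to 32.3 M gene counts; lines that name no gene held 21.14 to 22.35% and stayed out. Of 37310 identifiers, 32620 matched a symbol. Depth and n, 2 libraries a side, set the precision.

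Counts were filtered with filterByExpr, scaled with TMM and tested with the robust quasi-likelihood test of edgeR 4.0.16 in R 4.3.3, with Benjamini-Hochberg adjustment over all genes. DESeq2 1.42.0, limma 3.58.1 (voom), other scalings and filters, other controls, a block, sex as a term and leaving out each library were alternatives. The SE of a change by edgeR was the absolute log2 change divided by the square root of the F statistic of its test. The difference of effects came from 1 edgeR fit of 16 cortex libraries. The scripts were tested on simulated data. The text names Dnmt3a, the methylation machinery, genes called by edgeR or DESeq2, up to 10 genes per direction of smallest p (mean log2 CPM 1 or more, sides apart), genes at 0 counts on one side with at least 10 in each library of the other, up to 4 members per list of smallest p and members that show a list's level, up to 10 genes per direction that differ within a side, and up to 5 called differences of effects per direction. Predicted symbols were counted and not named, except 4930447C04Rik, and some genes that the rule selects are not reported here. The comparison and its 33 gene lists were chosen with earlier results of these data known.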

Additional observations from a re-analysis of the deposited data

Results flagged for a closer look

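The effects of losing the short and the long isoform differed for 23 genes by edgeR's test of the difference itself in the fit of 16 cortex libraries. Positive values mean a higher change in Dnmt3a2-/- than in Dnmt3a1-/-. The 5 largest positive differences were 1.12 ± 0.19 (SE) for Fam198b, 1.03 ± 0.20 for Slc13a3, 0.92 ± 0.14 for Frzb, 0.90 ± 0.11 for Dnmt3a and 0.83 ± 0.15 for Msmo1, an enzyme of cholesterol synthesis. The 5 largest negative ones were -2.31 ± 0.42 for Dct, a melanin pathway enzyme, -1.34 ± 0.21 for Cep128, a centriole protein, -1.08 ± 0.15 for Thbs4, -1.06 ± 0.16 for Gdf10 and -0.92 ± 0.18 for Igfn1. Dct held 1.60 and 1.37 CPM in wild type r1 and r2 and 1.58 and 1.23 CPM in Dnmt3a2-/-, against 4.71 to 6.79 CPM in Dnmt3a1-/-. Of these 10 genes, Dnmt3a and Thbs4 passed edgeR in each fit that left out 1 of the 4 libraries, where the lone library of a side is assumed to vary like the other groups.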

How the results depend on the processing

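The count of 1 called gene was 2 with all 8 wild type libraries, 3 with all 16 cortex libraries in the fit, 8 by DESeq2, 0 by limma-voom (437 at an unadjusted p under 0.05), 64 without a filter and 0 without robust estimation (454 at an unadjusted p under 0.05). Leaving out 1 library gave 25 to 139. RLE and upper quartile scaling and a stricter filter each gave 1. Hsf2bp was among the genes called with all 8 wild type libraries, where Rps4l did not pass. With all 16 cortex libraries the called genes were Rps4l, Stk31 and Hsf2bp. The labels do not say that same-numbered libraries belong together, and the deviations of same-numbered libraries correlated at 0.111 with sex-linked genes and at -0.12 without. The replicate block, which is the same split as sex, gave 55 calls, and the crossed pairing, chosen after seeing the data, gave 2. The difference from Dnmt3a1-/- gave 108 calls by DESeq2 and 5 to 44 with 1 library left out, and that from Dnmt3a1_delta_N gave 2 by DESeq2 and 0 to 19.

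Some log2 changes turned sign, and the cause was not tested. With all 8 wild type libraries these were Hspa1b (0.073), Akap5 (0.15), Cobl (0.24), Homer1 (0.33), Uhrf2 (0.13), Mbd4 (0.090), Mbd5 (0.13), Tdg (0.31), Zbtb33 (0.096), Zbtb38 (0.19), Dnmt1 (-0.11), Tet2 (-0.0076), Mbd3 (-0.25), Mbd6 (-0.10), Gadd45b (-0.028), Gadd45g (-0.18), Col1a1 (-0.30), Per1 (-0.45), Ddit4 (-0.29), Sgk1 (-0.19), Sik1 (-0.45), Arc (-0.33) and Fos (-0.025). By limma-voom Dnmt1 was -0.0031 and Mbd3 -0.0071, and without a filter they were -0.0039 and -0.0015. Dnmt3b was 0.019 by DESeq2 and 0.0086 by upper quartile scaling, where Uhrf2 was 0.011 and Mbd1 0.013. With a stricter filter Uhrf2 was 0.0026 and Mbd1 0.0037. With the replicate block or sex as a term Dnmt3b was 0.0086 and Mbd3 -0.0045, and Mbd3 was -0.0054 with the crossed pairing.

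Leaving out 1 library gave ranges of -0.13 to 0.13 for Dnmt1, -0.43 to 0.37 for Dnmt3b, -0.35 to 0.020 for Tet1, -0.30 to 0.18 for Uhrf1, -0.054 to 0.044 for Uhrf2, -0.17 to 0.15 for Mbd1, -0.22 to 0.21 for Mbd3, -0.12 to 0.055 for Mbd4, -0.10 to 0.035 for Zbtb38, -0.18 to 0.34 for Gadd45a, -0.061 to 0.31 for Gadd45b, -3.67 to 5.36 for Ttr, -4.14 to 0.44 for Iigp1, -4.36 to 0.14 for Gbp4 and -2.74 to 0.25 for Igtp.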
